A study of Mus musculus with 7 samples.

Results

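Skeletal muscle contractile genes are described here: 42 genes of the motor, the thin and thick filaments, the Z disc, calcium handling and energy supply of muscle fibres, together with the regulators Myog and Myod1, among 53465 genes in the deposited table. The genes were chosen by name with their levels in the same 7 libraries already known, so their levels, fold changes and counts are a description and carry no test of their own. EMT6, a mouse mammary carcinoma cell line, was implanted as 500000 cells in the mammary fat pad of female Balb/c mice aged 6 to 8 weeks. The 3 EMT6-P tumors are labelled Control, and the 3 EMT6-PTR tumors are labelled PDR and anti-PD-L1 resistant. In the study, EMT6-P derives from mice given IgG control antibody, written IgG/PBS in places, and EMT6-PTR from mice given antibody to PD-L1. The labels do not say whether the sequenced EMT6-PTR tumors are those in which resistance arose or tumors grown again from resistant cells. Whether mice with regrown tumors were dosed is not stated either. Both antibodies were dosed in the study at 250 μg per mouse every 3 days up to the institutional endpoint. The labels name no transgene or deletion in any group. A single library came from a metastasis labelled as resistant, at a site that the labels do not name.

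Each library is bulk tissue, in which carcinoma cells and the cells of the host are measured together, and all tumors derive from 1 cell line. The sources used here do not say how tumors were separated from neighbouring tissue. Nothing in the labels says that replicates are separate mice, so p-values below measure only the spread between these samples, which may be technical. In the check of the labelled tissue, the carcinoma list held 4 genes. The keratins Krt8 and Krt18 stood at 505 to 1898 CPM and 73.8 to 449 CPM over the 7 libraries, both lowest in EMT6-PTR replicate 3. Epcam and Cdh1 were low in the tumors, at 4.79 to 10.6 CPM and 3.40 to 9.69 CPM. In the metastasis they stood at 52.2 and 138 CPM. Which cells of the metastasis made these 4 genes was not tested. CPM values are counts relative to the size of the library after upper-quartile scaling. The 6 lung markers summed to 8092 CPM in the metastasis and to at most 27.1 CPM in any tumor.

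A muscle fibre shortens when myosin heads of the thick filament pull on actin in the thin filament, an interaction that troponin and tropomyosin allow only when calcium is bound to troponin C. The ryanodine receptor releases that calcium from the sarcoplasmic reticulum and a calcium pump returns it, while creatine kinase, glycogen breakdown and oxidative metabolism supply the ATP. Fast glycolytic and slow oxidative fibres carry different versions of most of these proteins, each from its own gene, and embryonic and perinatal versions are replaced as fibres mature. Several tropomyosins and enolase 3 are also made outside muscle.

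Promoter sequence, shown because most of these genes moved together over the libraries, was found in RefSeq (build GRCm38.p6) for 35 of the 42 genes, and Tnnt3, Myoz1, Neb, Myot, Myod1, Actn3 and Tnni2 had no entry. Printed are the 250 bases before the RefSeq start of the gene, 5′ to 3′ on the strand of the gene, with each E-box in capitals, for the genes with the largest summed counts among them, Tpm1 (chr9:67049214-67049463, minus strand) and Tpm3 (chr3:90072401-90072650, plus strand). Acta1 (chr8:123894776-123895025, minus strand) and Ckm (chr7:19410844-19411093, plus strand), 1 actin and 1 creatine kinase gene of the fibre, were added after their values were seen. An E-box, CANNTG, is the kind of site that MyoD, myogenin and many other basic helix-loop-helix factors bind, and it was searched on both strands.
Tpm1: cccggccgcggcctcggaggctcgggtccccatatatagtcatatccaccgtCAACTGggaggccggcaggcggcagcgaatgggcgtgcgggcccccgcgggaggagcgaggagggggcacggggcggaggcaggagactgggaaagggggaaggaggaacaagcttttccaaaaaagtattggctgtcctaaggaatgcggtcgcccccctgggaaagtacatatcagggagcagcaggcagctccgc
Tpm3: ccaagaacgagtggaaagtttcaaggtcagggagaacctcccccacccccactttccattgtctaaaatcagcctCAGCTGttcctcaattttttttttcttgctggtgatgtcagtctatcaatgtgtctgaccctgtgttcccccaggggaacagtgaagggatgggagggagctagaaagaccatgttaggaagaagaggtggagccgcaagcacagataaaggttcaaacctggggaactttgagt
Acta1: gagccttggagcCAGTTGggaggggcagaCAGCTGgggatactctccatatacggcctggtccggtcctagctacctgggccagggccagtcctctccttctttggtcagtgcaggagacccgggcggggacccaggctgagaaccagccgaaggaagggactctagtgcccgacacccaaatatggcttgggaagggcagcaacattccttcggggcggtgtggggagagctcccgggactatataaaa
Ckm: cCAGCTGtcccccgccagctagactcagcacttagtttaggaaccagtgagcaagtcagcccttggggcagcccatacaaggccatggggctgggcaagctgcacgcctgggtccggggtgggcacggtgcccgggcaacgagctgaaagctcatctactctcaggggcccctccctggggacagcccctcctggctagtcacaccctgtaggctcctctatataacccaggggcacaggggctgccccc
The E-box nearest to the start began 198 bases before it in Tpm1, 175 bases before it in Tpm3, 221 bases before it in Acta1 and 249 bases before it in Ckm. Of the 35 promoters, 32 (91.4%) held a CANNTG, against 69.3% of the promoters of 27025 genes, and the promoters of Myh1, Myh2 and Ryr1 held none. The form CAGCTG, a subset of CANNTG that the windows of Tpm3, Acta1 and Ckm hold, was present in 17 of the 35 (48.6%), against 14.7% of all. A MEF2 site on either strand was present in 6 (17.1%), those of Myh1, Myh4, Myh8, Pvalb, Ttn and Xirp2, against 3.42% of all. The CArG box of serum response factor was present in 3 (8.57%), those of Acta1, Myh4 and Myl3, against 1.62% of all, and TATAA on the strand of the gene in 10 (28.6%), against 18.4%. These are matches of letters in a short window, and binding was not measured.

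Muscle RNA was present in very unequal amounts over the libraries, and the difference did not follow the groups. EMT6-PTR replicate 1 held by far the most, EMT6-P replicates 1 and 3 held an intermediate amount, and EMT6-P replicate 2, EMT6-PTR replicates 2 and 3 and the metastasis held little. Without the 4 genes that were high in every library (Tpm1, Tpm2, Tpm3 and Eno3), the other 38 summed to 1207, 39.9 and 754 CPM in EMT6-P replicates 1 to 3. They summed to 8692, 26.4 and 35.7 CPM in EMT6-PTR replicates 1 to 3 and to 60.6 CPM in the metastasis. As a share of all counts this was 0.929% in EMT6-PTR replicate 1, 0.121% and 0.0775% in EMT6-P replicates 1 and 3, and between 0.00232% and 0.00616% in the other 4 libraries. Fewer fibres and less RNA per fibre cannot be told apart in bulk tissue.

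**Figure D1:**
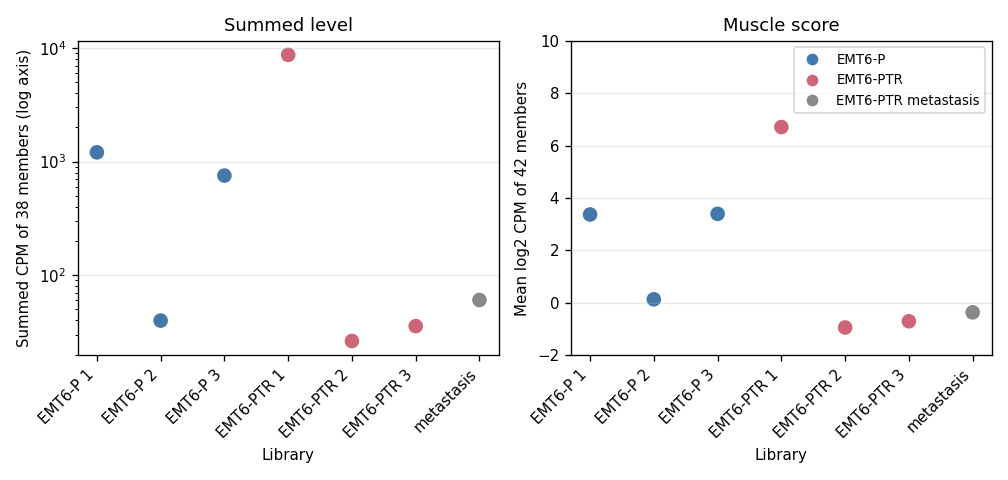
Left, the summed CPM of 38 muscle genes in each library on a log axis; right, the mean log2 CPM of all 42 genes, each point 1 library coloured by group. EMT6-PTR replicate 1 stood at 8692 CPM, EMT6-P replicates 1 and 3 at 1207 and 754 CPM, and the other 4 libraries between 26.4 and 60.6 CPM.

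The muscle score, the mean log2 CPM over the 42 genes with a prior count of 2, was 3.37, 0.13 and 3.39 in EMT6-P replicates 1 to 3 and 6.70, -0.94 and -0.70 in EMT6-PTR replicates 1 to 3. The groups overlapped, with 1 EMT6-PTR tumor above and the other two below every EMT6-P tumor. Its mean was 2.30 ± 1.87 (SD, n = 3) in EMT6-P and 1.69 ± 4.35 (SD, n = 3) in EMT6-PTR. The difference of -0.61 was smaller than the spread in either group, and it turned to 0.70 with EMT6-PTR replicate 2 left out and to 0.58 with EMT6-PTR replicate 3 left out. For 40 of the 42 genes the highest of the 7 libraries was EMT6-PTR replicate 1. The exceptions were Tpm3, highest in EMT6-P replicate 2, and Myog, highest in EMT6-P replicate 3. No count was found for 18 of the genes in EMT6-PTR replicate 2, for 14 in EMT6-PTR replicate 3, for 11 in the metastasis and for 6 in EMT6-P replicate 2, while all 42 had counts in the other 3 libraries. For a gene without counts the limit is 3 counts, or 0.117 to 0.167 CPM at totals of 20430110 to 25213472 counts per library, which covers counting error only.

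**Figure D2:**
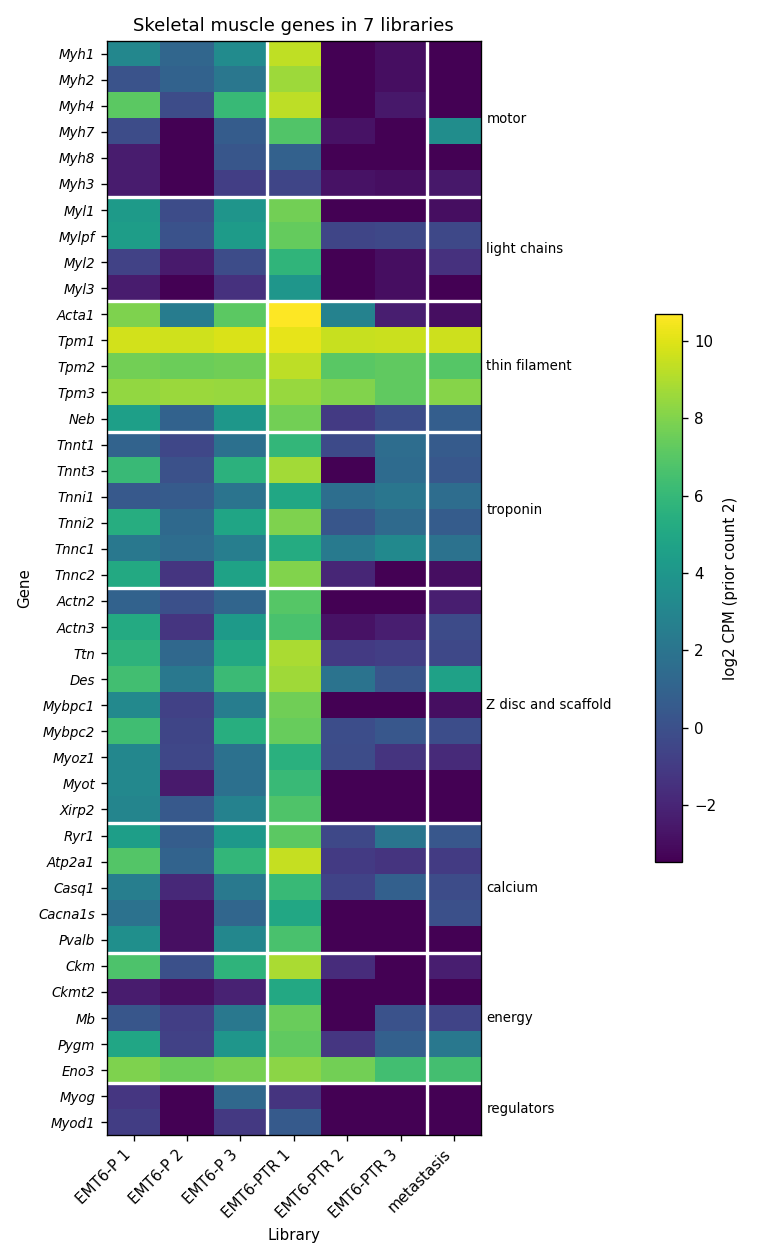
log2 CPM (prior count 2) of the 42 muscle genes, in rows by role, in the 7 libraries, in columns, with white lines between groups and between roles. EMT6-PTR replicate 1 is the brightest column for 40 genes, and Tpm1, Tpm2, Tpm3 and Eno3 are bright in every column.

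In the motor of the thick filament, the fast heavy chains Myh4 (type IIB), Myh1 (type IIX) and Myh2 (type IIA) and the slow heavy chain Myh7 were measured with the perinatal and embryonic chains Myh8 and Myh3. Myh4 (chromosome 11 of GRCm38, 67238029 to 67260446) stood at 139.7, 0.794 and 67.3 CPM in EMT6-P replicates 1 to 3, 612, 0 and 0.0781 CPM in EMT6-PTR replicates 1 to 3 and 0 CPM in the metastasis. Its neighbour Myh1 (67200052 to 67224575) stood at 8.53, 2.24 and 10.4 CPM in EMT6-P replicates 1 to 3, 647, 0 and 0.0391 CPM in EMT6-PTR replicates 1 to 3 and 0 CPM in the metastasis. Both were highest in EMT6-PTR replicate 1, yet EMT6-P replicate 1 held 22.8% of that tumor's level of Myh4 and 1.32% of its level of Myh1. Myh2 was present at 1.02, 1.92 and 4.29 CPM in EMT6-P replicates 1 to 3, 393, 0 and 0.0391 CPM in EMT6-PTR replicates 1 to 3 and 0 CPM in the metastasis. Myh7, on chromosome 14, stood at 0.780, 0 and 1.46 CPM in EMT6-P replicates 1 to 3, 114, 0.0557 and 0 CPM in EMT6-PTR replicates 1 to 3 and 11.2 CPM in the metastasis. Myh2 and Myh7 were thus nearly restricted to EMT6-PTR replicate 1, except that the metastasis held the second-highest level of Myh7. Myh8 reached 1.83 CPM (42 counts) in EMT6-PTR replicate 1 and 1.18 CPM (25 counts) in EMT6-P replicate 3, and Myh3 at most 0.611 CPM (14 counts). Both developmental chains were at 0 to 2 counts in the other 5 libraries.

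Per kilobase of exon, the share of each heavy chain in the sum of the 6 differed among the 3 tumors with most muscle RNA. Myh4 made up 93.6% of the sum in EMT6-P replicate 1, 81.2% in EMT6-P replicate 3 and 37.4% in EMT6-PTR replicate 1. Myh1 made up 5.41%, 11.9% and 37.4% in the same order, and Myh2 0.578%, 4.37% and 20.2%. Myh7 made up 0.365%, 1.23% and 4.87%. The share of Myh4 in the raw counts had exact 95% binomial intervals of 92.0% to 93.9%, 77.2% to 81.0% and 34.2% to 35.1%, so these 3 libraries differed by more than counting error, which is all that these intervals cover. EMT6-P replicate 2 held 106 counts of the 6 chains, of which 17 were Myh4, 48 Myh1, 41 Myh2 and 0 Myh7. EMT6-PTR replicates 2 and 3 held 2 and 5 counts, too few for a share, and in the metastasis 280 of 282 counts were Myh7. Myh1, Myh2, Myh4, Myh8 and Myh3 are near-identical neighbours among which RSEM divides reads by estimation, as are Myh7 and the heart chain Myh6, so that these shares are uncertain.

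**Figure D3:**
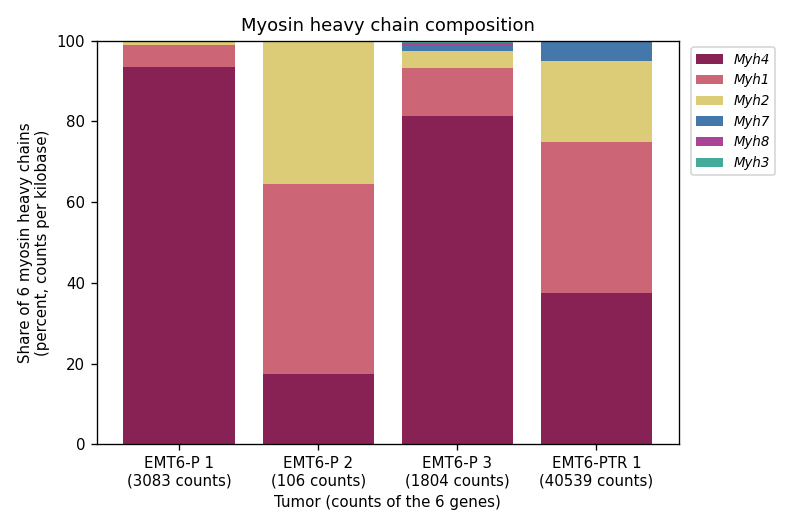
Share of each of 6 myosin heavy chain genes in their sum, in percent of counts per kilobase, for the 4 tumors with at least 50 counts of them; each bar is 1 tumor and sums to 100%. Myh4 takes 93.6%, 17.5%, 81.2% and 37.4% of the bars from left to right.

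The light chains stabilise the lever arm of myosin. The fast regulatory light chain Mylpf stood at 21.4, 0.981 and 19.5 CPM in EMT6-P replicates 1 to 3, 165, 0.613 and 0.664 CPM in EMT6-PTR replicates 1 to 3 and 0.679 CPM in the metastasis, and was highest in EMT6-PTR replicate 1 and intermediate in EMT6-P replicates 1 and 3. The fast essential light chain Myl1 stood at 19.3, 0.794 and 14.8 CPM in EMT6-P, 204, 0 and 0 CPM in EMT6-PTR and 0.0400 CPM in the metastasis. The slow regulatory light chain Myl2, at 0.536, 0.0934 and 0.802 CPM in EMT6-P, 54.7, 0 and 0.0391 CPM in EMT6-PTR and 0.280 CPM in the metastasis, was close to absent outside EMT6-PTR replicate 1. Myl3, the slow essential light chain, stood at 15.7 CPM (360 counts) in EMT6-PTR replicate 1 and at 0 to 6 counts in each of the other 6 libraries.

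In the thin filament, skeletal α-actin Acta1 (chromosome 8, 123891769 to 123894751) had the highest level per kilobase of all 42 genes in EMT6-PTR replicate 1, at 1079.9 CPM per kilobase. Its level was 245, 5.42 and 139 CPM in EMT6-P replicates 1 to 3, 1659, 7.07 and 0.117 CPM in EMT6-PTR replicates 1 to 3 and 0.0400 CPM in the metastasis. The groups were interleaved: EMT6-P replicates 1 and 3 lay above EMT6-PTR replicates 2 and 3 and below EMT6-PTR replicate 1. Neb, the giant protein that runs along the thin filament, stood at 23.2, 1.87 and 16.5 CPM in EMT6-P, 206, 0.390 and 0.821 CPM in EMT6-PTR and 1.64 CPM in the metastasis. The tropomyosins, which block or open the myosin sites on actin and have non-muscle forms from the same genes, had another pattern. Tpm1 stood at 833, 828 and 934 CPM in EMT6-P replicates 1 to 3, 1168, 726 and 765 CPM in EMT6-PTR replicates 1 to 3 and 792 CPM in the metastasis. Tpm2 was at 206, 183 and 195 CPM in EMT6-P, 623, 135 and 153 CPM in EMT6-PTR and 123 CPM in the metastasis, and Tpm3 at 333, 375 and 368 CPM in EMT6-P, 364, 255 and 154 CPM in EMT6-PTR and 281 CPM in the metastasis. Over the 7 libraries Tpm1 varied by less than 2-fold, Tpm2 stood out in EMT6-PTR replicate 1 alone, and Tpm3 was not raised there.

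Troponin makes the filament respond to calcium through its subunits T, which binds tropomyosin, I, which inhibits, and C, which binds calcium, each with a fast and a slow gene. The fast troponin T gene Tnnt3 stood at 71.2, 0.934 and 49.6 CPM in EMT6-P replicates 1 to 3, 419, 0 and 2.66 CPM in EMT6-PTR replicates 1 to 3 and 1.20 CPM in the metastasis, and the fast troponin I gene Tnni2 at 41.0, 2.52 and 29.3 CPM in EMT6-P, 245, 1.17 and 2.58 CPM in EMT6-PTR and 1.48 CPM in the metastasis. Tnnc2, the fast troponin C gene, stood at 35.1, 0.327 and 26.2 CPM in EMT6-P, 255, 0.167 and 0 CPM in EMT6-PTR and 0.0400 CPM in the metastasis. All of these were highest in EMT6-PTR replicate 1, intermediate in EMT6-P replicates 1 and 3, and below 3 CPM elsewhere. The slow genes differed from this order. Tnnt1 stood at 2.00, 0.654 and 3.25 CPM in EMT6-P, 60.2, 0.724 and 2.89 CPM in EMT6-PTR and 1.40 CPM in the metastasis. Tnni1 was at 1.32, 1.40 and 3.91 CPM in EMT6-P, 31.6, 3.06 and 4.10 CPM in EMT6-PTR and 2.88 CPM in the metastasis, and Tnnc1 at 4.53, 2.94 and 5.99 CPM in EMT6-P, 38.1, 5.12 and 9.49 CPM in EMT6-PTR and 3.60 CPM in the metastasis. Each slow gene was highest in EMT6-PTR replicate 1 too, but Tnni1 and Tnnc1 were higher in EMT6-PTR replicate 3 than in any EMT6-P tumor, and Tnnt1 there exceeded EMT6-P replicates 1 and 2.

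Over 5 pairs of a fast and a slow gene (Tnnt3 and Tnnt1, Tnni2 and Tnni1, Tnnc2 and Tnnc1, Mylpf and Myl2, Myl1 and Myl3), the fast genes made up 96.1%, 52.8% and 92.5% of counts per kilobase in EMT6-P replicates 1 to 3. They made up 90.2%, 20.4% and 25.7% in EMT6-PTR replicates 1 to 3 and 32.8% in the metastasis. The share was above 90% in the 3 tumors with most muscle RNA and lower in the others, where it rested on 35 to 151 counts of the fast genes and 109 to 424 counts of the slow genes. There the pairs disagreed. In EMT6-P replicate 2, EMT6-PTR replicates 2 and 3 and the metastasis, Mylpf made up 91.3%, 100%, 94.4% and 70.8% of the raw counts of its pair, from 11 to 24 counts. Tnnc2 made up 10%, 3.16%, 0% and 1.10%, beside 63, 92, 243 and 90 counts of Tnnc1. The low share is thus no common trait of the 5 pairs. In raw counts the share was 95.7% in EMT6-P replicate 1 (exact 95% binomial interval 95.01% to 96.3%), 90.7% in EMT6-P replicate 3 (89.7% to 91.7%) and 86.5% in EMT6-PTR replicate 1 (86.2% to 86.9%). The widest gap among these 3 tumors was in the regulatory light chains, with 97.6%, 96.1% and 75.1% of raw counts from Mylpf.

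Among the proteins of the Z disc and the scaffold, Des, the intermediate filament of muscle that vascular mural cells also make, stood at 85.8, 4.44 and 74.0 CPM in EMT6-P replicates 1 to 3, 407, 3.73 and 1.13 CPM in EMT6-PTR replicates 1 to 3 and 24.9 CPM in the metastasis. Ttn, the molecular spring between the Z disc and the M line, stood at 52.1, 2.43 and 34.0 CPM in EMT6-P, 475, 0.390 and 0.469 CPM in EMT6-PTR and 0.679 CPM in the metastasis. Both were highest in EMT6-PTR replicate 1, and Des was higher in the metastasis than in EMT6-P replicate 2 or EMT6-PTR replicates 2 and 3. The Z disc crosslinker of fast fibres, Actn3, stood at 36.5, 0.327 and 19.1 CPM in EMT6-P replicates 1 to 3, 99.7, 0.0557 and 0.117 CPM in EMT6-PTR replicates 1 to 3 and 0.759 CPM in the metastasis. Actn2, its counterpart in all fibres, stood at 1.90, 0.888 and 2.17 CPM in EMT6-P, 123, 0 and 0 CPM in EMT6-PTR and 0.120 CPM in the metastasis. EMT6-P replicate 1 held 36.5% of the Actn3 and 1.55% of the Actn2 of EMT6-PTR replicate 1. The myosin-binding proteins split likewise, with the fast Mybpc2 in EMT6-P replicate 1 at 49.0% and Mybpc1 at 4.59% of the level in EMT6-PTR replicate 1. Myoz1, Myot and Xirp2, which bind α-actinin or actin, stood at 45.6, 70.1 and 111 CPM in EMT6-PTR replicate 1, at 8.29, 8.82 and 7.80 CPM in EMT6-P replicate 1 and at 3.44, 3.30 and 6.89 CPM in EMT6-P replicate 3. In the other 4 libraries the highest of these values was 1.31 CPM.

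For calcium handling, the fast calcium pump Atp2a1 (SERCA1, chromosome 7, 126445858 to 126463108) stood at 118, 2.01 and 59.6 CPM in EMT6-P replicates 1 to 3, 698, 0.390 and 0.313 CPM in EMT6-PTR replicates 1 to 3 and 0.3997 CPM in the metastasis. The release channel Ryr1 stood at 21.9, 1.54 and 17.0 CPM in EMT6-P, 139.9, 0.668 and 4.06 CPM in EMT6-PTR and 1.20 CPM in the metastasis. The pump was about as low in EMT6-PTR replicate 3 as in the metastasis, whereas Ryr1 kept 104 counts there. Casq1, which stores calcium in the reticulum, stood at 67.5 CPM in EMT6-PTR replicate 1 and 6.04 and 4.72 CPM in EMT6-P replicates 1 and 3. Cacna1s, the voltage sensor that opens the ryanodine receptor, stood at 32.4 CPM in EMT6-PTR replicate 1 and 3.51 and 2.22 CPM in the same EMT6-P tumors. Pvalb, the calcium buffer of fast fibres, stood at 98.6, 11.8 and 8.30 CPM in these 3 libraries and had 1 count in EMT6-P replicate 2 and 0 counts in EMT6-PTR replicates 2 and 3 and the metastasis.

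In energy supply, muscle creatine kinase Ckm (chromosome 7, 19404776 to 19422841) stood at 106, 0.888 and 53.0 CPM in EMT6-P replicates 1 to 3, 468, 0.223 and 0 CPM in EMT6-PTR replicates 1 to 3 and 0.120 CPM in the metastasis. Glycogen phosphorylase Pygm stood at 29.8, 0.514 and 15.9 CPM in EMT6-P, 152, 0.334 and 1.72 CPM in EMT6-PTR and 4.48 CPM in the metastasis. Both were highest in EMT6-PTR replicate 1, followed by EMT6-P replicates 1 and 3, and Pygm came next in the metastasis. Eno3, the muscle enolase, stood at 245, 180.3 and 221 CPM in EMT6-P, 300.2, 208 and 86.0 CPM in EMT6-PTR and 88.8 CPM in the metastasis, and was high in all 7 libraries. The genes of oxidative fibres were nearly restricted to EMT6-PTR replicate 1. Myoglobin Mb stood at 1.17, 0.467 and 4.58 CPM in EMT6-P replicates 1 to 3, 179, 0 and 0.977 CPM in EMT6-PTR replicates 1 to 3 and 0.599 CPM in the metastasis, and mitochondrial creatine kinase Ckmt2 had 773 counts (33.7 CPM) in EMT6-PTR replicate 1 and 0 to 3 counts in each of the other 6 libraries.

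Myog and Myod1, the factors that switch on the muscle program, had few counts in every library. Myog had 7, 0 and 50 counts in EMT6-P replicates 1 to 3, 7, 0 and 0 counts in EMT6-PTR replicates 1 to 3 and 0 counts in the metastasis. Myod1 had 9, 0 and 8 counts in EMT6-P replicates 1 to 3, 32, 0 and 0 counts in EMT6-PTR replicates 1 to 3 and 0 counts in the metastasis. EMT6-P replicate 3 thus held the most Myog although it held 2944 Acta1 counts against 38013 in EMT6-PTR replicate 1.

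To compare the kind of muscle RNA rather than its amount, low genes were set against the Acta1 counts of the same library in the 3 tumors with at least 1000 of these, with genes chosen after their values were seen. Per 1000 Acta1 counts, Myog had 17.0 counts in EMT6-P replicate 3 (exact 95% Poisson interval 12.6 to 22.4), 1.39 in EMT6-P replicate 1 (0.559 to 2.86) and 0.184 in EMT6-PTR replicate 1 (0.0740 to 0.379). Perinatal Myh8 had 8.49, 0.397 and 1.10 in the same order, and embryonic Myh3 3.40, 0.397 and 0.368. Chrnd, the acetylcholine receptor δ subunit, had 4.08 (2.11 to 7.12), 0.596 (0.123 to 1.74) and 0.0789 (0.0163 to 0.231). For these genes EMT6-P replicate 3 stood highest among the 3 tumors, with intervals that do not overlap those of the other tumors for Myog, Myh8, Myh3 (1.63 to 6.25 against 0.0481 to 1.43 and 0.201 to 0.618) and Chrnd, and each value comes from 1 library. Igfn1, an immunoglobulin-domain protein of muscle, had 63.9, 25.0 and 1.97, and the regulator of mature fibres Myf6 had 11.9, 9.13 and 3.74. Myod1 had 2.72 (1.17 to 5.35), 1.79 (0.817 to 3.39) and 0.842 (0.576 to 1.19), intervals that overlap between neighbours in this order. Mymk and Mymx, the fusogens of myoblasts, had 6 and 5 counts in EMT6-P replicate 3, 0 and 1 in EMT6-P replicate 1 and 0 in EMT6-PTR replicate 1. Mymk also had 58 counts in the metastasis, where Acta1 had 1. Other genes set against Acta1 did not single out EMT6-P replicate 3. Chrng, the receptor γ subunit, had 0.679 (0.0823 to 2.45), 0.397 (0.0481 to 1.43) and 0 in the same order, the first 2 with overlapping intervals. Myf5 had 0, 0.397 and 0.0263. Pax7 and Mstn had 4 and 11 counts in EMT6-PTR replicate 1 and 0 in EMT6-P replicates 1 and 3.

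As classes, named after the values were seen, the muscle genes of EMT6-P replicates 1 and 3 did not stand at 1 common fraction of their level in EMT6-PTR replicate 1. Over the 38 genes, the median level in EMT6-P replicate 1 was 11.9% of that in EMT6-PTR replicate 1, and in EMT6-P replicate 3 it was 8.39%. For the 14 genes of fast fibres these medians were 15.2% and 9.41%, and the range in EMT6-P replicate 1 ran from 0.260% for Myh2 to 49.0% for Mybpc2. For the 6 slow genes they were 2.15% and 3.60%, and for the oxidative genes Mb and Ckmt2 0.472% and 1.49%. By median, fast genes thus stood higher than slow and oxidative ones relative to EMT6-PTR replicate 1 in both EMT6-P tumors. Single genes overlapped between the classes. The type IIA and IIX chains Myh2 and Myh1 lay on the side of the slow genes. The slow Tnnc1, at 11.9% and 15.7%, lay above the fast Casq1, at 8.95% and 6.98%. The 14 genes shared by fast and slow fibres had medians of 13.7% and 8.17%. The developmental chains Myh3 and Myh8 stood at 15.96% and 5.32% in EMT6-P replicate 1 and at 77.2% and 64.3% in EMT6-P replicate 3.

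**Figure D4:**
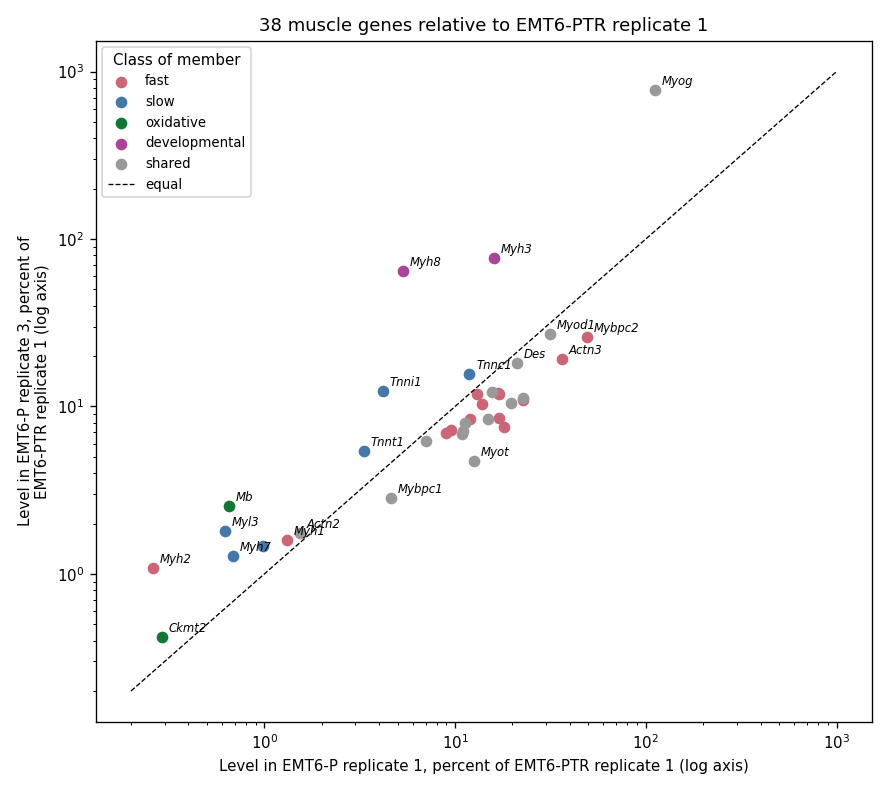
Level of 38 muscle genes in EMT6-P replicate 1 (horizontal) and EMT6-P replicate 3 (vertical), each in percent of the level in EMT6-PTR replicate 1, which both axes share, on log axes; colours mark fibre classes and the dashed line equal percentages. The medians are 15.2% and 9.41% for fast genes, 2.15% and 3.60% for slow genes and 0.472% and 1.49% for oxidative genes. Below the line lie 24 of the 38 genes. Above it lie Myog, Myh3, Myh8, Myh1, Myh2, Actn2 and all slow and oxidative genes.

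Between EMT6-PTR and EMT6-P (n = 3 tumors per group), by the quasi-likelihood test of edgeR and Benjamini-Hochberg adjustment, 0 of 15645 genes tested were called at an adjusted p under 0.05 (0%), and 1786 (11.4%) had an unadjusted p under 0.05. Of the 42 muscle genes, 36 passed the filter on low counts, and Myh8, Myh3, Myl3, Ckmt2, Myog and Myod1 did not. None of the 36 was called, Tnni1 and Tnnc1 had an unadjusted p under 0.05, and limma-voom called 0 of all genes (0%). DESeq2 called 281 of all genes (1.8%) and 0 of the 36. By fitted fold change, EMT6-PTR was 2-fold higher or more for 30 of the 36 and 2-fold lower or more for 0, against 6.27% and 1.29% of all genes tested. The median log2 fold change was 2.07, and 0.025 over all genes tested. The genes were chosen with these values known, so nothing is read from these counts.

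The fitted fold changes rested on 1 tumor. The log2 fold change was 2.10 for Acta1 with a standard error of 2.47, 1.55 for Ckm with 2.56, and 5.76 for Myh2, the largest, with 2.82. Tpm3, the lowest, stood at -0.48 with a standard error of 0.30. Without EMT6-PTR replicate 1, 0 of 36 genes were higher by 2-fold or more and 29 lower by as much, where 8.03% and 4.66% of the genes in that fit were, 34 of the 36 were below 0, and the median was -4.76. Acta1 then stood at -5.22 and Ckm at -9.06, and the exceptions above 0 were Tnni1 and Tnnc1, at 0.69 and 0.70. None was called in that fit either (0% of all genes, edgeR's quasi-likelihood test), and 25 of the 36 had an unadjusted p under 0.05, against 18% of the genes in that fit. Leaving out any other tumor kept the median between 1.505 and 2.80. With limma-voom, whose group means are taken over log values, the median was -1.13, with 4 genes higher by 2-fold or more and 19 lower by as much, against 3.99% and 3.45% of all genes. The muscle genes therefore have no direction between the groups that holds across these fits.

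**Figure D5:**
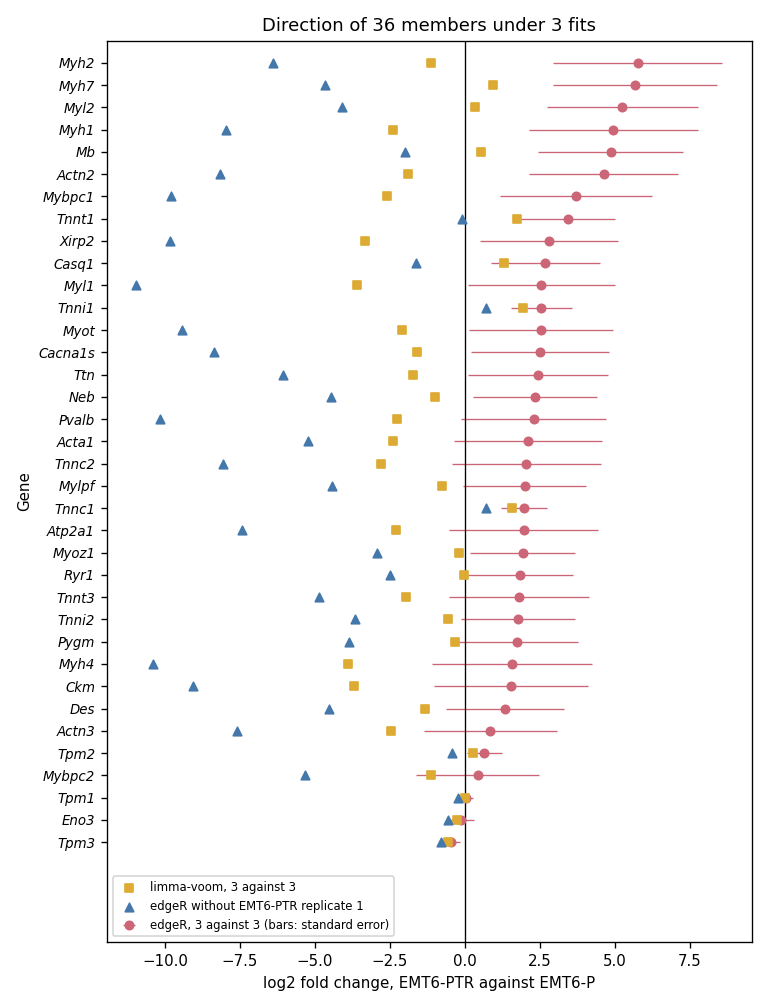
log2 fold change of EMT6-PTR against EMT6-P for the 36 muscle genes tested, from edgeR with all 6 tumors (circles, bars of 1 standard error), from limma-voom (squares) and from edgeR without EMT6-PTR replicate 1 (triangles). The median is 2.07 for the circles, -1.13 for the squares and -4.76 for the triangles.

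No muscle gene had all 3 EMT6-PTR tumors above or all 3 below all 3 EMT6-P tumors, while 9.52% of all genes tested were above and 11.8% below. The order of the libraries, in contrast, was shared. For 35 of the 42 genes EMT6-PTR replicate 1 exceeded EMT6-P replicates 1 and 3, and these exceeded EMT6-P replicate 2, EMT6-PTR replicates 2 and 3 and the metastasis. The exceptions were Myh2, Myh7, Tpm3, Tnnt1, Tnni1, Tnnc1 and Myog. This order, which was chosen on the values of these genes, was held by 273 (1.74%) of the genes tested, of which 30 were muscle genes of the list, 47 were among the 109 companion genes below and 196 were neither.

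The companion genes are 109 muscle genes outside the list, in 6 groups that were written with earlier results of these data known. Of 90 tested, edgeR's test called 0, and 10 had an unadjusted p under 0.05, against 0% and 11.4% of all genes tested. By fold, 57 were higher by 2-fold or more and 1, Igfn1, lower by as much, against 6.27% and 1.29% of all genes. Igfn1 stood at 6.14, 0 and 8.87 CPM in EMT6-P and 3.27, 0 and 0 CPM in EMT6-PTR. DESeq2 called 3, Asph, Cacnb1 and Megf10, at an adjusted p under 0.05, and 1.8% of all genes. The median log2 fold change of the companion genes was 1.55, and -1.92 without EMT6-PTR replicate 1 and -0.053 with limma-voom. The order over libraries was held by 21 of 30 other sarcomere genes, 13 of 20 genes of the triad and excitation, 6 of 18 energy genes, 6 of 13 genes of atrophy and stress, 4 of 17 regulators and satellite cell genes and 1 of 11 genes of the neuromuscular junction. Among those chosen after their values were seen, Tcap, the cap of titin at the Z disc, stood at 15.4, 0.607 and 14.2 CPM in EMT6-P replicates 1 to 3, 224.5, 0.111 and 0.0781 CPM in EMT6-PTR replicates 1 to 3 and 0.0400 CPM in the metastasis. Trdn, which anchors calsequestrin to the ryanodine receptor, stood at 9.26, 0.420 and 8.25 CPM and at 67.7, 0 and 0.0391 CPM in the same order of tumors.

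In each group the 3 companion genes with the smallest p were named, with adjusted p-values of 0.421 to 0.527 (edgeR's quasi-likelihood test). Hspb6, a small heat shock protein of muscle, stood at 11.8, 10.3 and 12.1 CPM in EMT6-P and 111.6, 9.25 and 20.2 CPM in EMT6-PTR (log2 fold change 2.04, standard error 0.87). Capn3, a calpain bound to titin, and Ldb3, an adaptor of the Z disc, had log2 fold changes of 2.00 and 2.97 with standard errors of 1.04 and 1.72. Without EMT6-PTR replicate 1 they were 0.37 for Hspb6, 0.15 for Capn3 and -1.50 for Ldb3. In the group of the triad, Asph, whose gene also encodes junctin, stood at 47.3, 63.2 and 54.8 CPM in EMT6-P and 77.9, 94.8 and 86.5 CPM in EMT6-PTR, so that the groups did not overlap. Its log2 fold change was 0.65 with a standard error of 0.16 and an adjusted p of 0.421 (edgeR's quasi-likelihood test), and it was 0.72 without EMT6-PTR replicate 1. Cacnb1, a calcium channel β subunit, stood at 7.94, 9.30 and 8.77 CPM against 13.8, 11.9 and 13.7 CPM (log2 fold change 0.60, standard error 0.18). For Srl, sarcalumenin of the reticulum, the log2 fold change was 2.24 (standard error 1.13), and it was -0.059 without EMT6-PTR replicate 1.

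Megf10, a receptor of satellite cells that other cells also carry, stood at 5.12, 5.23 and 8.77 CPM in EMT6-P and 30.4, 59.4 and 12.2 CPM in EMT6-PTR, without overlap (log2 fold change 2.41, standard error 0.58, adjusted p 0.421 in edgeR's quasi-likelihood test). Six4 and Eya1, a homeodomain factor and its coactivator, had log2 fold changes of 0.71 and 2.47 with standard errors of 0.27 and 0.98, the latter from 62.8 CPM in EMT6-PTR replicate 3. At the neuromuscular junction, Rapsn, which clusters acetylcholine receptors, stood at 3.50 to 3.73 CPM in EMT6-P and 4.71 to 11.1 CPM in EMT6-PTR (log2 fold change 1.14, standard error 0.35). Colq, the tail of acetylcholinesterase, stood at a log2 fold change of 1.97 (standard error 0.70), and Chrnb1, the receptor β subunit, at -0.75 (standard error 0.31). Megf10 was highest in EMT6-PTR replicate 2 and Eya1, Rapsn and Colq in EMT6-PTR replicate 3, not in replicate 1. Among energy genes, Phka1, a subunit of phosphorylase kinase, and Pfkm, muscle phosphofructokinase, stood at 0.85 and 0.77 with standard errors of 0.32 and 0.41, and adenylate kinase Ak1 at -0.44 with 0.21. Without EMT6-PTR replicate 1 they were 0.83 for Phka1, 0.23 for Pfkm and -0.69 for Ak1. Fbxo32, the atrophy ligase atrogin-1, and its regulator Foxo3 had log2 fold changes of 0.71 and 0.43 with standard errors of 0.28 and 0.24. Ankrd2, a stretch-responsive protein of slow fibres, had one of 3.795 with 2.28, from 60.5 CPM in EMT6-PTR replicate 1 against at most 2.14 CPM elsewhere. Without that tumor the values were 0.40 for Fbxo32, 0.51 for Foxo3 and -5.63 for Ankrd2, and Ankrd2 stood at -1.43 with limma-voom.

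By likeness, the 10 genes outside the list with the highest Pearson correlation with the muscle score over the 7 libraries included Klhl40 (r = 0.9986), Adprhl1, Klhl31, Lmod3, Trim54, Ankrd23, Smpx, Cox8b and Klhl41 (r = 0.9906). Adprhl1 and Klhl31 were in no list. The libraries form separate clusters in this score, so r mainly records the gap between EMT6-PTR replicate 1, EMT6-P replicates 1 and 3 and the rest. Klhl40, which stabilises proteins of the thin filament, stood at 1.85, 0.234 and 1.70 CPM in EMT6-P replicates 1 to 3, 10.9, 0.0557 and 0.117 CPM in EMT6-PTR replicates 1 to 3 and 0.120 CPM in the metastasis. Ankrd23, the most abundant of these genes, stood at 39.0, 4.34 and 33.0 CPM and at 252, 3.06 and 5.04 CPM in the same order of tumors.

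Markers of the other cell types given here did not share the order. All 4 fibre markers, which are muscle genes of the list, held it, and 0 genes did in the lists for heart muscle (8 genes), smooth muscle (8), satellite cells (4), adipocytes (6), tendon (6), epidermis (6), lung (6), red cells (3), leukocytes (4) and carcinoma keratins (4). Smooth muscle markers summed to 725 to 888 CPM in EMT6-P and 131 to 925 CPM in EMT6-PTR, lowest in EMT6-PTR replicate 3. Adipocyte markers summed to 10.2 to 25.4 and 20.4 to 31.0 CPM, most of it Fabp4 (9.67 to 30.1 CPM), with Adipoq at most 1.62 CPM. Tendon markers summed to 42.8 to 67.2 and 47.8 to 290.0 CPM. The highest tendon sum, in EMT6-PTR replicate 3, was mostly Fmod at 256 CPM. In that tumor Scx stood at 11.4 CPM, its lowest among the tumors, and Tnmd and Mkx had 0 counts. Epidermal markers summed to 318 to 562 and 20.3 to 514 CPM, most of it Krt14, with Flg2 at 0 in 6 of 7 libraries. Krt1, Krt10 and Krt5 were highest in EMT6-P replicate 3, at 6.18, 4.81 and 26.9 CPM. In any other library they reached at most 0.0467, 1.04 and 9.21 CPM. Satellite cell markers summed to 2.52 to 8.21 and 4.28 to 6.68 CPM, almost all of it Cdh15, with Pax7 at 0 counts in 6 libraries and 4 counts in EMT6-PTR replicate 1.

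Among the heart markers, Tnnt2 was high in all EMT6-P tumors (164 to 248 CPM) and in EMT6-PTR replicates 1 and 2 (175 and 142 CPM), and lower in EMT6-PTR replicate 3 and the metastasis (13.7 and 11.2 CPM). Myh6, the heart heavy chain next to Myh7, stood at 41.4 CPM (948 counts) in EMT6-PTR replicate 1 and at most 1.13 CPM in the other tumors. Beside it Ryr2 had 0 counts in all 6 tumors, Myl7 1 count in EMT6-PTR replicate 1 and 0 in the others, and Nppa 0 to 0.234 CPM. The remaining heart genes, Actc1, Tnni3 and Mybpc3, were at or below 2.03 CPM in every tumor.

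The metastasis, a single library, had low muscle RNA. It lay below EMT6-P replicates 1 and 3 and EMT6-PTR replicate 1 for 40 of the 42 genes, as did 40.5% of all genes tested, and above all 6 tumors for 0. It exceeded EMT6-P replicate 2 and EMT6-PTR replicates 2 and 3 for 7 genes (Myh7, Myh3, Myl2, Actn3, Des, Cacna1s and Pygm), where 24.9% of all genes tested did. Of these, Myh7 at 280 counts, Des at 623 counts and Pygm at 112 counts had the most reads, while Acta1 had 1 count and Ckm 3. Heart genes were measured beside Myh7 in this library: Myh6 at 3.84 CPM (96 counts), Actc1 at 3.96 CPM, Mybpc3 at 4.12 CPM, Tnnt2 at 11.2 CPM, Tnni3 at 1.36 CPM, Myl7 at 0.44 CPM and Ryr2 at 0.0400 CPM, with Nppa at 0. Their part in the level of Myh7 was not tested.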

How the data were processed

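The RNA of 7 samples (3 tumors of EMT6-P, 3 of EMT6-PTR and 1 metastasis) was sequenced from polyadenylated libraries that keep the strand. The authors deposited estimated counts per gene, before filtering or scaling, and the submitters' processing notes name FastQC 0.11.5, STAR 2.6.0a, RSEM 1.3.1 and build GRCm38. Totals were 20430110 to 25213472 per library, and 3 counts equal 0.117 to 0.167 CPM. RSEM shares reads among near-identical genes by estimation, so values of neighbouring myosin heavy chains are uncertain. No libraries held identical values.

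Estimated counts were rounded to whole numbers, filtered with filterByExpr, scaled by upper quartile and tested in R 4.3.3 with edgeR 4.0.16 (glmQLFit, glmQLFTest), EMT6-PTR against EMT6-P, with Benjamini-Hochberg adjustment over all genes tested at 0.05. Standard errors were derived from the F statistic, as the absolute log2 fold change over the root of F. CPM values are scaled over all 7 libraries, and log2 CPM uses a prior count of 2. Alternatives were TMM or total count scaling, DESeq2 1.42.0, limma-voom (limma 3.58.1), other filters, the replicate number as a block, leaving out each tumor in turn, and for scores a prior count of 0.5 or the median. Total count and TMM scaling of the library order, the median of companion genes and the MEF2, CArG and TATAA searches were added after seeing the data.

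Symbols were matched in GENCODE M21 by identifier without version (53274 of 53465; 39 of the 42 muscle genes kept the same version), and levels per kilobase use its exon lengths, which for genes with many isoforms exceed any single transcript. Cavin4 was taken for an older symbol. The muscle genes, companion lists and markers were chosen with earlier results of these data known. Values per library were given for the 2 genes of each role with the largest summed counts, genes highest in another library than most, and the fast and slow pairs. The 10 genes outside the list most correlated with the muscle score were named, apart from items that are not reported here. Other genes and the fibre classes were added after their values were seen. Of each companion list up to 3 genes with the smallest p were named. Intervals are exact and cover counting error only. Tables and plots used Python 3.11.15, pandas 2.3.3, scipy 1.17.1 and matplotlib 3.10.9.

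The main edgeR fit, DESeq2 and limma-voom were tested before use on simulated counts with 200 genes changed, and the other settings were not. At a dispersion of 0.1 they recovered 96.5%, 96.5% and 96% of these genes. At 0.4 they recovered 1.5%, 20.5% and 0.5%, so that most changes were missed. In the deposited counts the common dispersion over both groups came to 0.14, a value for all genes and not for the muscle genes.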

Additional observations from a re-analysis of the deposited data

Results flagged for a closer look

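In the metastasis, which enters no comparison between the groups, 4 of the 8 heart muscle markers were above every tumor and the other 4 were not. The share of all genes above every tumor is not given here, so nothing is read from this count. Actc1, cardiac actin, stood at 3.96 CPM against at most 0.660 CPM in any tumor. Mybpc3, the cardiac myosin-binding protein, stood at 4.12 CPM against at most 0.724 CPM. Myl7, the atrial light chain, stood at 0.44 CPM (11 counts) against at most 0.0436 CPM. Ryr2, the cardiac release channel, had 1 count against 0 in all 6 tumors, which is within the limit of 3 counts. Of the others, Tnnt2 was below every tumor at 11.2 CPM, Myh6 at 3.84 CPM lay below EMT6-PTR replicate 1 at 41.4 CPM, Tnni3 at 1.36 CPM lay below EMT6-PTR replicate 3 at 2.03 CPM, and Nppa had 0 counts. The metastasis is 1 library with no replicate.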

How the results depend on the processing

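With DESeq2, 281 of all genes and 3 companion genes were called, against 0 with edgeR, and the cause was not tested. The number of muscle genes at least 2-fold higher in EMT6-PTR was 30, and 4 with limma-voom, 6 with the replicate block and 7 with at least 10 counts in every sample, where only 12 genes were tested. It ranged from 0 to 34 with each tumor left out, and was 0 without EMT6-PTR replicate 1. The median log2 fold change of these genes, 2.07, was -1.13 with limma-voom, -0.61 with the replicate block and -4.76 without EMT6-PTR replicate 1, with a highest value of 2.80 without EMT6-P replicate 1. That of companion genes, 1.55, was -0.053 with limma-voom and -1.92 without EMT6-PTR replicate 1, with a highest value of 2.14. The muscle score difference of -0.61 ranged from -3.12, with EMT6-PTR replicate 1 left out, to 0.70 and 0.58 with EMT6-PTR replicates 2 and 3 left out. Same-numbered tumors deviated together with correlations of 0.26, 0.25 and 0.039. These 3 values cannot decide whether such tumors share a batch or a pairing, which the labels do not state. With the replicate block 0 muscle genes were called. No muscle gene was called by edgeR, DESeq2 or limma-voom under any of the 12 alternatives run. With TMM and with total count scaling, 35 muscle genes held the order of libraries and 40 lay lower in the metastasis than in the 3 tumors with most muscle RNA, while over all genes tested 273 held the order with upper-quartile, 253 with TMM and 633 with total count scaling.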
